A study of Equus caballus with 4 samples.

Results

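The genes described here are the WNT ligands, their frizzled receptors and the secreted antagonists, together with the LRP co-receptors, the R-spondins and LGR receptors, and the AXIN and DACT proteins inside the cell. They were chosen by gene symbol, with earlier results of these data known, which gave 37 genes on 60 probes, out of 15301 named genes and 43603 probes on the horse array. Satellite cells are the muscle precursor cells that lie beside the fibres. Those used here were isolated from the *semitendinosus* muscle of colts and preplated to lower the share of fibroblasts. They had differentiated for 48 h in 2 groups, of which one then received HMB, a metabolite of leucine, for 24 h (50 µg in the labels, µM instead of µg in the methods of the study) and the other stayed in differentiation medium as the control. Both groups were taken on day 3 of differentiation. Labelled cRNA made from the total RNA of both was hybridised to 4 two-colour arrays on 1 slide, HMB-treated cells always in Cy5 and control cells always in Cy3, so that a dye bias of a probe and the effect of HMB cannot be told apart. The labels call the 4 arrays biological replicates but do not say which colt an array came from, so the spread between arrays may hold differences between colts, cultures and hybridisations.

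WNT proteins are secreted, lipid-modified ligands. They bind a frizzled receptor together with LRP5 or LRP6, which holds back the degradation of beta-catenin and lets it reach the genes it regulates, or they act without beta-catenin on cell polarity and calcium. Antagonists of the DKK family bind the LRP co-receptors, while SFRP proteins and WIF1 bind the ligands themselves. In skeletal muscle this signalling takes part in the activation of satellite cells, in myoblast differentiation and in regeneration.

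The messenger RNA of an antagonist and of a receptor showed the largest differences among the tested members. *DKK1* was 2.78-fold higher in HMB-treated than in control cells, and *DKK2*, whose control signal was not above background on 1 of 4 arrays, was higher by a size that is uncertain, while *FZD10* was 2.19-fold, *LRP5* just under 1.3-fold and *WNT11* 1.17-fold lower. Of the 37 genes, 19 had a probe with the same dye above background on all 4 arrays and were tested with limma, and 18 were too dim to test. An adjusted p of at most 0.05, counted over all probes tested, was reached by 5 of the 19 members (26.3%), 2 higher and 3 lower, and by 4 of 17 when both dyes had to be above background, which leaves *DKK2* without a value. The same threshold was reached by 22.8% of all 27383 tested probes (11.2% higher, 11.6% lower) and by 22.7% of 9989 named genes, each taken by its brightest tested probe (11.5% higher, 11.2% lower). With the 8 further genes named only by their description added, 7 of 23 tested genes were called (30.4%). The added calls were *FZD2* and *SFRP4*, both lower, and *SFRP4* entered the test through the dye in which it was higher. The share of the members themselves, 26.3%, is close to that of the whole array. The members had a median log2 ratio of 0.02, as it was over the 9989 genes. The SD of the means was 0.49 among members and 0.34 among all named genes. With the sign left aside, the median size of the log2 ratio was 0.13 among members and 0.15 among all named genes.

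**Figure D1:**
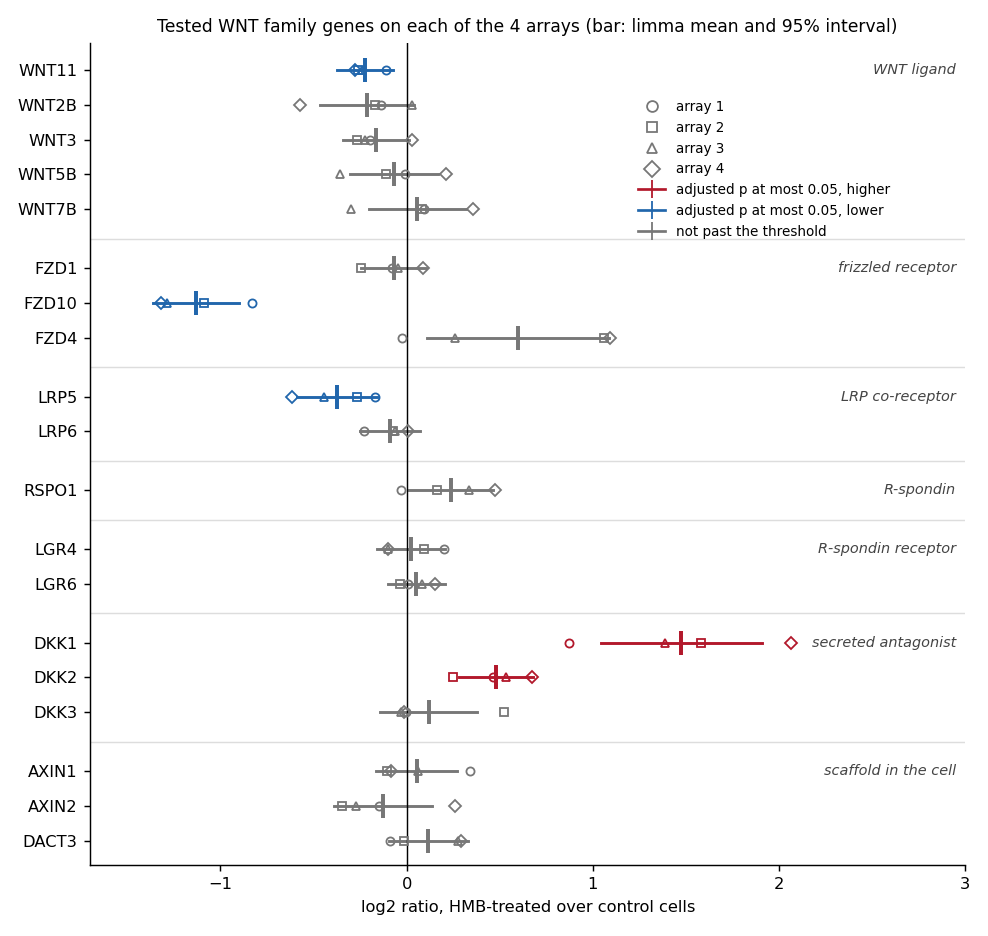
Log2 ratio of HMB-treated over control cells for the 19 tested members in order of their role, with a symbol for each of the 4 arrays, a vertical mark for the limma mean and a horizontal bar for its 95% interval. *DKK1* lies between 0.87 and 2.06 and *FZD10* between -1.32 and -0.83, while most of the other genes lie on both sides of 0.

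Detection divided the roles. Of the 15 WNT ligands chosen by symbol 5 could be tested, as could 3 of 5 frizzled receptors, both LRP co-receptors, 1 of 4 R-spondins, 2 of 3 LGR receptors, 3 of 5 antagonists and all 3 scaffold genes. A further 8 genes of the family, named only by their description, are not counted here and are given under Other observations. The dim ligands with no array above background in either dye were *WNT1*, *WNT4*, *WNT8A*, *WNT8B*, *WNT9A* and *WNT16*. *WNT2* was above background on 1 array, *WNT9B* on 2, and *WNT7A* and *WNT10B* on 3 arrays. *WNT7A*, a ligand known for enlarging the satellite cell pool, was therefore at the edge of detection in both groups, and no fold is given for it. Among the other roles, *RSPO2*, *RSPO3*, *RSPO4* and *WIF1* were not above background on any array, *FZD3* and *LGR5* were so on 1 array, and *FZD6* and *SFRP1* on 3 arrays. A dim probe says only that the signal was not well above background, not that the transcript was absent.

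**Figure D2:**
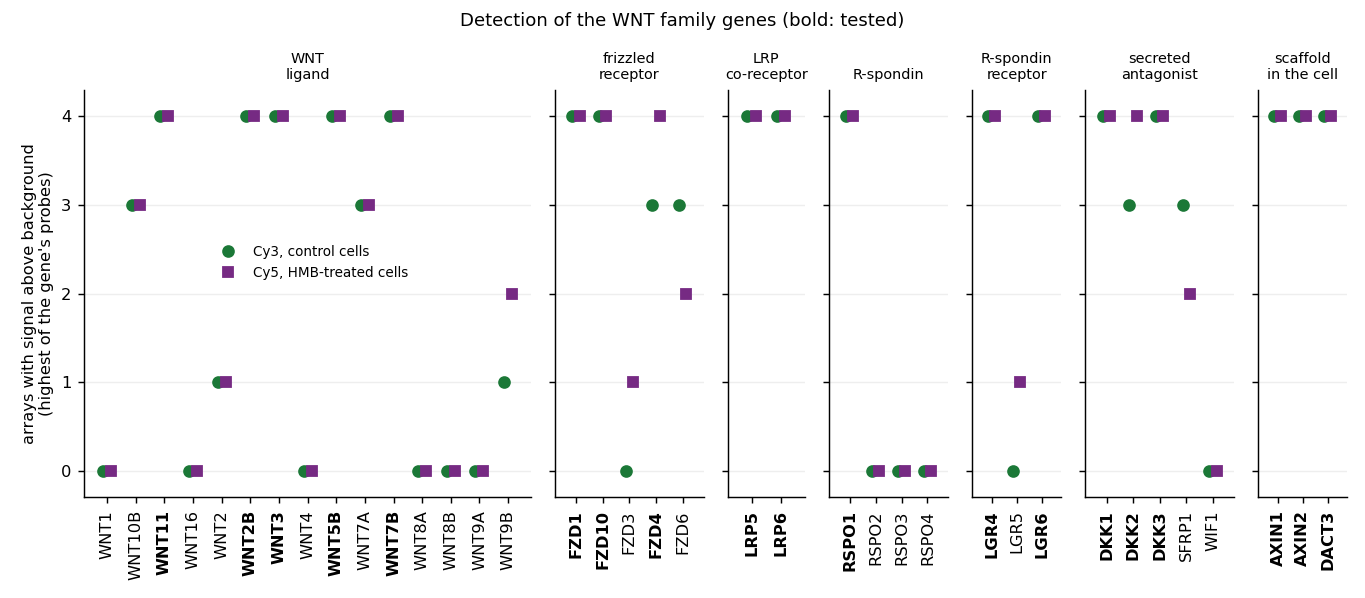
Number of arrays, out of 4, on which a member's signal was well above background in Cy3 (control cells, circles) and in Cy5 (HMB-treated cells, squares), taken from the probe of the gene with the highest number. Of the 37 genes, the 19 in bold were tested, and 10 were not above background on any array.

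Among the ligands, *WNT11*, which acts mostly without beta-catenin and guides cell movement and fibre orientation in the embryo, was the tested gene past the threshold. On arrays 1 to 4 the log2 ratios were -0.11, -0.26, -0.24 and -0.28, below 0 on every array. The mean was -0.22 ± 0.07 (SD, *n* 4), with a 95% interval of limma from -0.37 to -0.07 and an adjusted p of 0.0467 that lies just under the threshold. The fall was small, at 1.17-fold, but its arrays differed little from each other. Its probe reads a transcript across a junction, since its 60 bases span 3169 bases of the genome at chr7:55858305-55861473 (EquCab1, the build of the probe positions in the files). The sequence is shown because this ligand's call rests on this probe alone.
WNT11: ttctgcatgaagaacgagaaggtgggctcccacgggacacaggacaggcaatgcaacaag

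The other 4 tested ligands among the members did not pass the threshold as reported. *WNT3*, a ligand of the beta-catenin branch, gave -0.20, -0.27, -0.22 and 0.03 on the 4 arrays, a mean of -0.17 ± 0.13 (limma adjusted p 0.148), and passed only without lowess, at -0.32. *WNT2B*, of the same branch, gave -0.14, -0.17, 0.03 and -0.57, a mean of -0.21 ± 0.26 (limma adjusted p 0.186). In both genes 3 of 4 arrays were below 0. Array 4 stood apart in each, as the only one above 0 for *WNT3* and as the lowest for *WNT2B*, whose mean was -0.09 without replicate 4. *WNT5B*, a ligand that mostly acts without beta-catenin, had a mean of -0.07 ± 0.24, and *WNT7B* had a mean of 0.06 ± 0.27, each with arrays on both sides of 0. The probes of *WNT3* and the dim *WNT9B* lie 83.3 kb apart on chromosome 11, and those of the dim genes *WNT10B* and *WNT1* lie 14 kb apart on chromosome 6, places where WNT genes stand in pairs.

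Frizzled receptors are the membrane proteins that bind WNT directly. The mRNA of *FZD10* fell on all 4 arrays, with log2 ratios of -0.83, -1.09, -1.29 and -1.32. The mean was -1.13 ± 0.22 (SD, *n* 4), with a 95% interval from -1.36 to -0.90 and a limma adjusted p of 0.00165. Array 1 showed the smallest fall, and its ratio still stood for a level in control cells well above that in HMB-treated cells. A further probe of the gene gave -0.77, -1.13, -1.22 and -1.54, with a mean of -1.17 and an adjusted p of 0.00312 in limma. Both probes are shown because the same fall was read by a pair of sequences that share only a short stretch. They lie at chrUn:198524766-198524825 and chrUn:198524723-198524782 on the minus strand, on sequence not placed on a chromosome in EquCab1, and the capitals mark the 17 bases they have in common. The pair shares its target, so it is no independent replicate.
FZD10, brightest probe: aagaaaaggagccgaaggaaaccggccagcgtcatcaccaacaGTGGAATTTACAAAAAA
FZD10, further probe: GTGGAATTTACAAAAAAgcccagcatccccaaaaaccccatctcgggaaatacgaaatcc

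*FZD4*, which also serves norrin as a receptor, differed widely between arrays. Its log2 ratio was close to 0 on array 1, at -0.02, and 1.06, 0.26 and 1.09 on arrays 2 to 4. The mean of 0.60 ± 0.57 had an interval from 0.11 to 1.08 but missed the threshold after adjustment (limma adjusted p 0.0792). The probe was above background in Cy3 on 3 of 4 arrays and in Cy5 on all 4, so it entered the test through the dye in which it was higher, its size is uncertain, and the gene has no value when both dyes must be above background. The other 2 probes of *FZD4* were dim on all arrays. The threshold was reached without replicate 1 and with normexp background correction and loess, where the mean was 0.30, and neither is taken as a change. *FZD1*, the remaining tested frizzled receptor among the members, had a mean of -0.07 ± 0.14, with 1 array above 0. *FZD2*, named only by its description, was called lower, a call lost without some replicates, and is given under Other observations.

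*LRP5* and *LRP6* are the co-receptors that turn a bound WNT into a beta-catenin signal, and they are also the proteins that DKK1 occupies. *LRP5* was below 0 on every array, at -0.17, -0.27, -0.44 and -0.62. Its mean of -0.37 ± 0.20 (SD, *n* 4) had an interval from -0.59 to -0.16 and a limma adjusted p of 0.0300. Its probe also crosses a junction, with 60 bases spread over 2030 bases at chr12:18145530-18147559, and is shown as the single reading of this gene.
LRP5: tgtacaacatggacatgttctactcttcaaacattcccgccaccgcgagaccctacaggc

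*LRP6* gave -0.23, -0.08, -0.06 and 0.01 on the 4 arrays, a mean of -0.09 ± 0.10 (limma adjusted p 0.358). Its other 3 tested probes, each shifted by 20 bases along the same stretch of chromosome 6, had means of -0.01, 0.01 and 0.09. No probe of *LRP6* passed the threshold, and the 4 means lay on both sides of 0. Whether the 2 co-receptors differed from each other was not tested.

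R-spondins strengthen WNT signals by binding LGR receptors, which keeps the ligases RNF43 and ZNRF3 from removing frizzled receptors. None of the 3 tested genes of these roles passed the threshold in limma. *RSPO1* alone had an unadjusted limma p under 0.05, as had 10546 of all 27383 tested probes. *RSPO1*, which is needed for timely differentiation of muscle progenitors, gave -0.03, 0.16, 0.34 and 0.47, a mean of 0.24 ± 0.22 (limma adjusted p 0.117). Array 1 was again the lowest and the other 3 were above 0. *LGR4* had a mean of 0.02 ± 0.15 by its brightest probe and 0.17 by the other, and *LGR6* a mean of 0.05 ± 0.08.

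Secreted antagonists gave the largest rise among the tested members. *DKK1*, which blocks the beta-catenin branch by binding LRP5 and LRP6, had log2 ratios of 0.87, 1.58, 1.39 and 2.06. It was higher in HMB-treated cells on all 4 arrays, least on array 1 and most on array 4. The mean was 1.48 ± 0.49 (SD, *n* 4), with an interval from 1.05 to 1.91 and a limma adjusted p of 0.00440. *DKK2*, a relative that binds the same co-receptors and can block or activate depending on the cell, gave 0.46, 0.25, 0.54 and 0.67. All 4 arrays were above 0, lowest on array 2. The probe of *DKK2* was above background in Cy5 on all arrays and in Cy3 on 3, so it entered the test through the dye in which it was higher, and the size of its ratio is uncertain. Their probes are shown because each gene has 1 probe on the array, *DKK1* at chr1:42190204-42190263 and *DKK2* at chr2:103667763-103667822, both on the plus strand.
DKK1: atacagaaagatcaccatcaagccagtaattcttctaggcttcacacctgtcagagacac
DKK2: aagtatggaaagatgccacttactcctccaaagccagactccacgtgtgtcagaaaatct

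*DKK3*, a divergent relative that does not bind the LRP co-receptors in the same way, had a mean of 0.12 ± 0.27 (limma adjusted p 0.457). Its mean rests on array 2, at 0.52, since the other 3 arrays lay between -0.03 and 0.00. *SFRP1* was represented by 5 overlapping probes, shifted by 1 to 3 bases from the next and dim on at least 1 array in both dyes, so no ratio is given for it.

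AXIN proteins hold the complex that marks beta-catenin for degradation, and DACT proteins bind dishevelled. None of the 3 tested scaffold genes passed the threshold in limma, and none had an unadjusted p under 0.05. *AXIN2*, itself a common target of beta-catenin and often used to read the activity of the pathway, gave -0.15, -0.35, -0.27 and 0.26, a mean of -0.13 ± 0.27 with an adjusted p of 0.424 in limma. *AXIN1* had a mean of 0.05 ± 0.21, with 0.10 for its other probe, and *DACT3* a mean of 0.12 ± 0.20. At this number of arrays the 95% interval of *AXIN2*, from -0.39 to 0.13, does not settle a direction.

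The calls of *FZD10* and *DKK1* were the most stable. Each passed the threshold in 13 of 14 alternative settings. The exception was a plain one-sample t-test of each probe, which left no member past the threshold after adjustment. An unadjusted p under 0.05 in that t-test was reached by 5 of 19 members and by 8435 of all 27383 tested probes. Some of the 14 could hardly move a call. The deposited table of the series holds the same ratios, and keeping spots marked non-uniform or outlying left the 5 means unchanged. The mean of a gene's probes changed only *FZD10*, which has 2 tested probes. A minimum of 1.3-fold is not among the 14. *DKK2* was lost without replicate 3, and *LRP5* and *WNT11* were lost without replicate 2, 3 or 4. With normexp and loess the mean of *DKK2* was 0.17, that of *LRP5* -0.11 and that of *WNT11* -0.10, none past the threshold. Without lowess *DKK2* was at 0.23 and not past it, while *LRP5* was at -0.63 and *WNT11* at -0.37. Treating the channels as unpaired, or keeping dim probes in the test, left only *DKK1* and *FZD10* past the threshold, and *WNT11* was also lost with a trended, robust prior. *LRP5* and *WNT11* did not reach a minimum of 1.3-fold. The direction of these 5 genes was the same in every setting tried that gave a value.

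**Figure D3:**
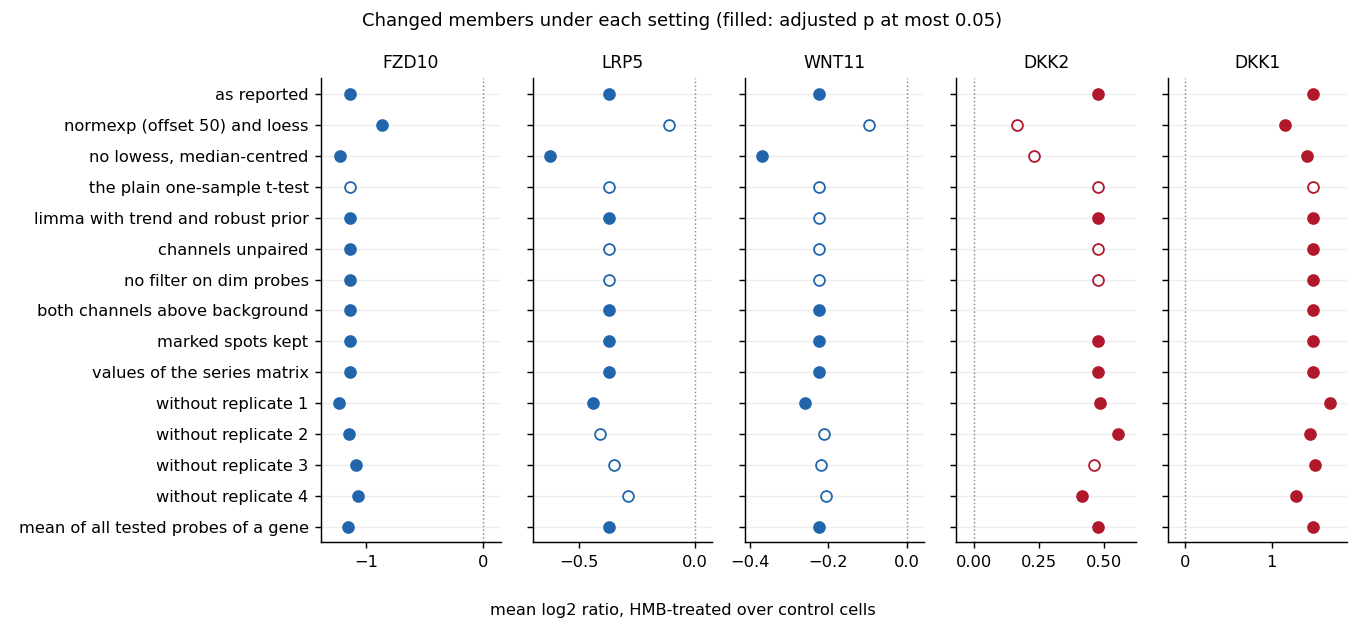
Mean log2 ratio of the 5 changed members as reported and under each alternative setting, with filled circles for an adjusted p of at most 0.05. *FZD10* and *DKK1* stay filled in every row but the t-test, whereas *DKK2* is filled in 7 of 13 alternatives, *LRP5* in 7 of 14 and *WNT11* in 6 of 14.

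The rest of the pathway was read from 7 lists. Beside their counts, and those of the marker lists further below, stands the share over all named genes. Of these 9989 genes, 22.7% passed the same threshold, 11.5% higher and 11.2% lower. Of the genes that mature and release WNT, both tested ones stayed short of the threshold in limma. An unadjusted limma p under 0.05 was reached by 1 of them and by 10546 of all 27383 tested probes. *PORCN*, the acyltransferase that adds the lipid, had a mean log2 ratio of 0.09 ± 0.04, and *WLS*, the carrier that takes WNT to the cell surface, 0.28 ± 0.25. *NOTUM*, which removes the lipid again, was dim.

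Of 8 tested genes among the other receptors and co-receptors, 2 were lower and none higher, and the list's median was -0.11. *MUSK*, the receptor kinase of the neuromuscular junction, fell by 0.74 ± 0.20 on the log2 scale (limma adjusted p 0.00442) and was below 0 on 4 of 4 arrays, with a mean of -0.45 under normexp. *KREMEN1*, a receptor that works with DKK1 to take LRP6 off the membrane, fell by 0.35 ± 0.16 (limma adjusted p 0.0258). The call was lost without any 1 of the 4 replicates and with normexp, at -0.12. It was also lost with a trended, robust prior, with unpaired channels and with no filter on dim probes. Without lowess *KREMEN1* was at -0.61 and passed the threshold. *RYK* and *PTK7*, which are atypical WNT receptors, had means of 0.07 ± 0.18 and -0.18 ± 0.16 and did not pass.

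Among other inhibitors at the cell surface or outside it, 5 of 11 genes were tested, with 1 higher, 1 lower and a median of 0.06. *IGFBP4*, an IGF-binding protein that can also block frizzled and LRP6, was 1.93-fold higher, with a mean of 0.95 ± 0.47 (limma adjusted p 0.0142), a call that was lost with unpaired channels and with no filter on dim probes. *CTGF*, a matrix protein able to bind LRP6, was 1.3-fold lower, with a mean of -0.38 ± 0.11 (limma adjusted p 0.0136) and between -0.43 and -0.40 on its other 4 probes. The call of *CTGF* was lost without replicate 3 and with unpaired channels. *TPBG* at 0.19 ± 0.16 and *ZNRF3*, the ligase that removes frizzled receptors, at -0.20 ± 0.11 did not pass, though *ZNRF3* did without lowess, at -0.36, while *SOST*, *SOSTDC1*, *NDP*, *CER1*, *APCDD1* and *RNF43* were dim.

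The list for the complex that degrades beta-catenin and for the dishevelled proteins also holds genes outside them, such as *TNKS*. Of its 16 tested genes 2 were higher and none lower, with a median of -0.04. The 2 were the kinase gene *CSNK1G2*, at 0.33 ± 0.11, and *TNKS*, at 0.31 ± 0.17, whose product marks AXIN for degradation. Both calls were lost with normexp, without lowess, with unpaired channels, with no filter on dim probes and without replicate 2 or 3. That of *TNKS* was also lost without replicate 4. With normexp as well as without lowess 3 other genes of the list were lower and none higher. *GSK3B*, the central kinase of the complex, had a mean of 0.02 ± 0.13, and *CSNK1E* had a mean of -0.21 ± 0.09, which did not pass here but did with normexp.

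Of 15 tested nuclear partners of beta-catenin, 2 were higher and 1 lower, with a median of 0.00. *CTNNB1*, the gene of beta-catenin itself, had a mean of -0.26 ± 0.14 (limma adjusted p 0.0483) and was below 0 on 4 of 4 arrays and on its other 4 probes, but its mean was 0.12 without lowess, where the medians of the arrays before centring were 0.67, 1.35, 0.68 and 0.57. Its call was also lost without replicate 1, 2 or 3. *PYGO1*, a co-activator, was higher at 0.38 ± 0.13, and *TBL1X*, which helps beta-catenin act at its target genes, at 0.29 ± 0.13. *PYGO1* was lost without replicate 2 or 3, with normexp and without lowess, and *TBL1X* without replicate 1, 2 or 3. No gene of this list was called with unpaired channels or with no filter on dim probes. *BCL9* at 0.02 ± 0.13 and *CTNNBIP1* at 0.00 ± 0.14 did not pass, and *TCF7* and *LEF1*, transcription factors that carry beta-catenin on DNA, were dim.

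Of 15 tested common target genes of beta-catenin 4 were lower and none higher, with a median of -0.08. *FST*, the follistatin gene, fell to nearly the same extent on every array, at -0.69, -0.76, -0.79 and -0.69, and passed in every setting tried. *WISP1*, a secreted matrix protein gene, was at -0.70 ± 0.26, and at -0.35 with normexp. *NKD2*, a dishevelled-binding feedback inhibitor, was above background in Cy5 on 3 of 4 arrays, so it entered the test through the dye in which it was higher and the size of its fall is uncertain. With both dyes required above background, 3 of 14 genes of the list were lower and 1 higher. The call of *NKD2* was lost without replicate 1, 2 or 3, with normexp, with unpaired channels and with no filter on dim probes. *CD44* at 0.28 ± 0.22 and *JUN* at -0.07 ± 0.16 did not pass. Many genes of this list answer to other signals as well.

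Of 20 tested genes of planar cell polarity and of the WNT-calcium branch 7 passed the threshold, 2 higher and 5 lower, with a median of -0.02. Without replicate 3 the number fell to 2. It was 8 with normexp, 4 with unpaired channels, 3 of 24 with no filter on dim probes and 1 with the plain t-test. *CAMK2D*, a calcium-dependent kinase, was at -0.65 ± 0.31 and *PLCB1*, a phospholipase that releases calcium, at -0.63 ± 0.35 (-0.37 with normexp). The calcium-regulated transcription factors *NFATC4* and *NFATC2* were higher, at 0.45 ± 0.16 and 0.40 ± 0.09, whereas *NFATC3* of the same family, named after its values were seen, was lower and *NFATC1* did not pass. *SCRIB* at -0.15 ± 0.14 and *RHOA* at -0.01 ± 0.29 did not pass. The calls of *CAMK2D*, *NFATC2* and *NFATC4* were lost without replicate 3 and that of *PLCB1* without replicate 4.

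**Figure D4:**
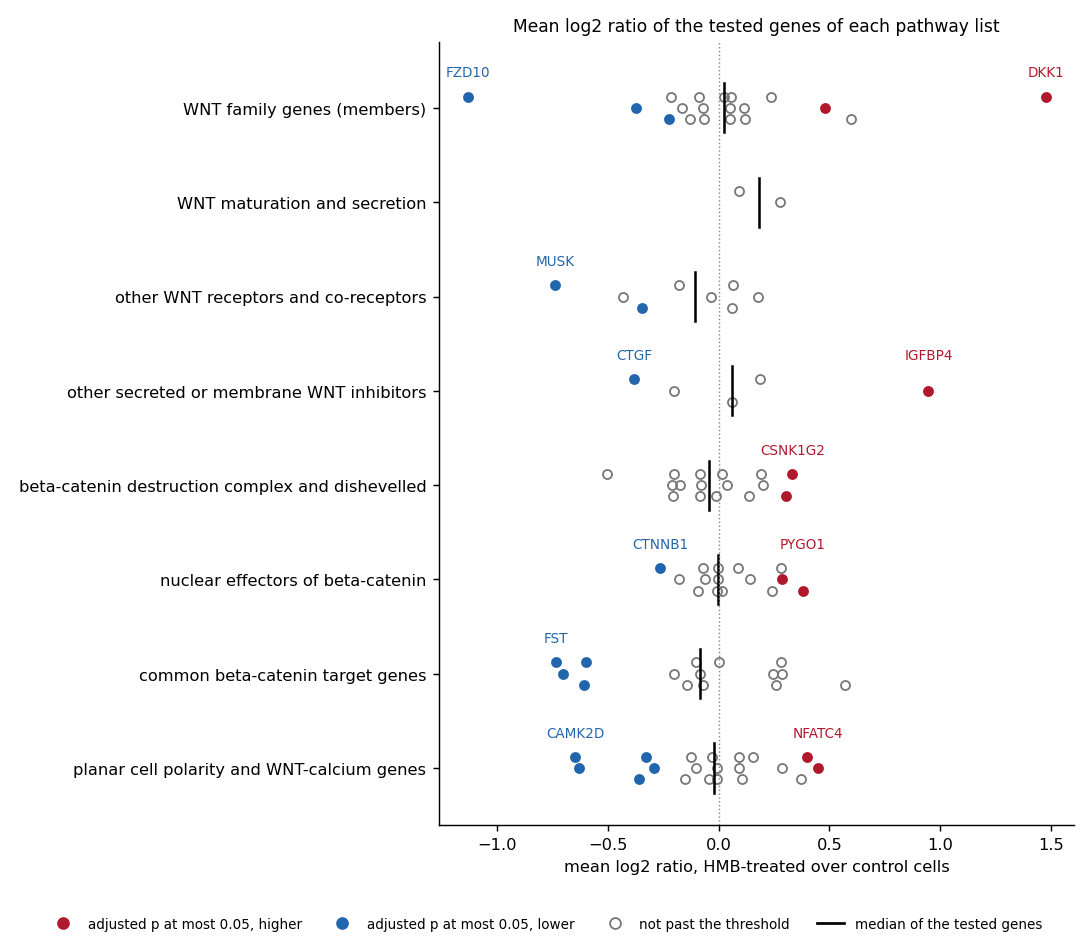
Mean log2 ratio of HMB-treated over control cells for every tested gene of the members and of the 7 pathway lists, with filled circles for an adjusted p of at most 0.05, the changed gene farthest out on each side named, and a black line at the median. The medians lie between -0.11 and 0.18, and *DKK1*, *IGFBP4*, *FZD10* and *MUSK* lie farthest from 0.

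The same arrays carried markers of the cells themselves. *MYF5*, *MYOD1*, *MYOG* and *DES* were above background on all 4 arrays in both dyes, as the label of differentiating satellite cells asks, whereas *PAX7* and *PAX3*, which mark satellite cells before differentiation, were dim. All 8 tested satellite cell and myoblast markers were lower with HMB, with a median of -0.82, led by *MYF5* at -1.01 ± 0.18, *DES* at -0.98 ± 0.37, *NCAM1* at -0.90 ± 0.28 and *ITGA7* at -0.86 ± 0.39. Without a single replicate between 5 and 7 of the 8 were called, with unpaired channels 5, with no filter on dim probes 2 of 10 and with the plain t-test 0. Of 11 tested genes of differentiating muscle 10 were lower, with a median of -0.87, and 9 of 10 were lower with both dyes required above background. *MYH8* was at -1.93 ± 0.36, *MYH7* at -1.15 ± 0.30 and *MYH3* at -1.11 ± 0.47 (*MYH7* -0.59 and *MYH3* -0.42 without lowess), all genes of myosin heavy chains. *MYH2*, another of them, was lower by a size that is uncertain. It was above background in Cy5 on 2 of 4 arrays, so it entered the test through the dye in which it was higher. *MYMK*, needed for myoblast fusion, was at -0.27 ± 0.26 and did not pass, though it did without replicate 1. Without lowess 9 of these 11 genes were lower and 1 higher, *ACTC1*, named after its values were seen and called lower as reported, and without a single replicate between 5 and 11 were lower. Unpaired channels left 7 of them, no filter on dim probes 3 and the plain t-test 0.

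The size of the fall in muscle markers grew from array 1 to array 4. The median of the differentiating muscle genes was -0.27 on array 1, -0.81 on array 2, -1.08 on array 3 and -1.32 on array 4, and array 1 was also the one with the smallest ratio of *DKK1*, *FZD10*, *LRP5* and *WNT11*, though not of *DKK2*, which was lowest on array 2. The median of the satellite cell and myoblast markers was -0.40, -0.77, -0.99 and -1.11 on the same arrays. The part that this difference in muscle markers has in the ratios of the WNT genes was not tested. In RNA of a whole culture, fewer cells of a type and less RNA per cell cannot be told apart.

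Of 10 tested fibroblast and stromal genes 2 were higher and none lower, with a median of 0.00, but without lowess 5 were higher and the median was 0.38. Without replicate 1, 1 was higher and 1 lower, with a median of -0.04. The medians on arrays 1 to 4 were 0.32, -0.13, -0.10 and -0.07. The 2 that were higher were *PDGFRA*, a marker of stromal progenitors of muscle, at 1.53 ± 0.47 (0.89 with normexp), and *FAP*, at 0.42 ± 0.18, whose call was lost without replicate 1, 2 or 3. *COL1A2* and *COL3A1* had means of -0.20 ± 0.28 and -0.21 ± 0.43, short of the threshold, but were above 0 with normexp and called higher without lowess. Of the smooth muscle and pericyte markers, 2 of 6 tested genes were lower, *MYH11* and *DES*, which skeletal muscle also makes. *MYH11* was above background in Cy5 on 3 of 4 arrays, so it entered the test through the dye in which it was higher. The size of its fall is uncertain. With both dyes required above background, 1 of 5 genes of the list was lower. *ACTA2* at -0.53 ± 0.54 and *CNN1* at -0.39 ± 0.48 did not pass. Without replicate 4, 3 of 6 genes were lower, and the list's median was -0.21 instead of -0.46. The call of *MYH11* was lost without replicate 1, 2 or 3. The 6 endothelial markers and the 5 adipocyte markers with a probe were all dim. Of the leukocyte markers, 4 of 7 were dim, *CD68* and *CD14* had means of -0.29 ± 0.30 and 0.02 ± 0.15, and *PTPRC* was called higher at 0.28 ± 0.13, although the means of its other 7 tested probes ran from -0.48 to 0.37 and the call was lost with their average and without any 1 of the 4 replicates. The part of these other cell types in the WNT ratios was not tested.

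**Figure D5:**
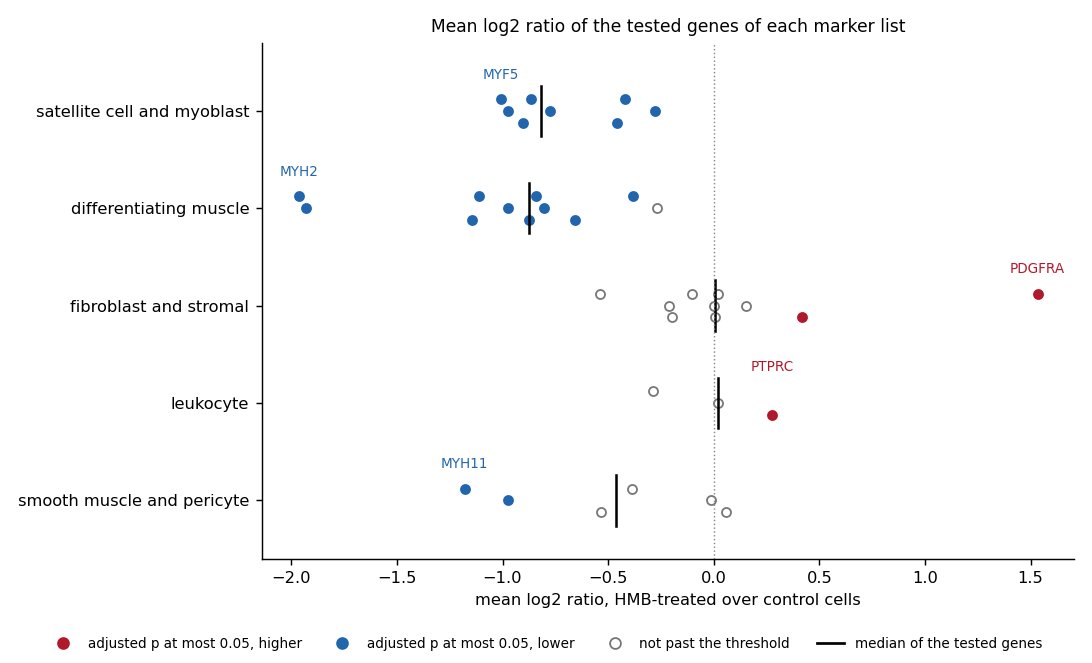
Mean log2 ratio of HMB-treated over control cells for every tested gene of the marker lists, with filled circles for an adjusted p of at most 0.05 and a black line at the median of each list. The 2 muscle lists lie below 0, with medians of -0.82 and -0.87, while the fibroblast list has a median of 0.00 and *PDGFRA* at 1.53.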

How the data were processed

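Total RNA of HMB-treated and control cells was measured on 4 two-colour arrays. The authors scanned them with Feature Extraction (10.10.1.1 in the file headers, a different version in the methods). As deposited, the ratios (Cy5 to Cy3) are log10 values that the authors normalised by the linear and lowess method, here multiplied by 3.32 to log2. The deposited intensity columns (mean signals, local background medians and processed signals) served the alternatives. The other deposited columns mark with 0 or 1 whether a spot is saturated, outlying, non-uniform or above its background, and the deposited table of the series holds the same log10 ratios (largest difference 0, each column with a median of 0).

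Control spots and spots marked non-uniform or outlying (11, 17, 32 and 15 on arrays 1 to 4) were left out, spots of a probe were averaged, and no spot was saturated. Testing required a signal well above background in 1 channel, the same on each of the 4 arrays, and values on 3 or more. Ratios were tested against 0, two-sided, with limma 3.58.1 (R 4.3.3, intercept only, empirical Bayes), adjusted by Benjamini and Hochberg over all 27383 tested probes. The code of the fits was run on simulated log ratios with known changes, which does not test the design of the arrays. Tables and figures were made with the data.table package (1.17.8), Python 3.11.15, numpy 2.4.6, pandas 2.3.3 and matplotlib 3.10.9. The share of spots above background was between 63.5% and 66.9% in each channel, and the number of arrays limits the precision.

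Each gene was represented by the brightest of its tested probes. Names came from the files for 27646 probes, from the RefSeq table (telomere-to-telomere thoroughbred assembly, names only) for 484 and, for genes of the lists and family, from the description column for 53. All members are named. Those past the threshold and the next 5 have every array given, the others a mean and SD. Of each list, up to 4 changed genes of largest ratio and up to 2 others with the brightest probe are named, and 1 gene of the lists is not reported here. Members and lists were chosen with earlier results of these data known. Lists are described by counts and medians without a test.

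Replicates were taken from the titles, since the description field names another treatment and a single replicate number throughout. Alternatives were normexp (offset 50) with loess, no lowess with median centring, a plain t-test, a trend with a robust prior, unpaired channels, dim probes left in, a requirement that both channels exceed background, marked spots left in, the table of the series, a minimum of 1.3-fold, the mean of a gene's probes, and each array left out, with at least 2 values then required. *GSK3A*, *FRAT1*, *FRAT2*, *SP5*, *AES* and *CEBPA* were not analysed here for want of a probe of that name. RT-qPCR was not analysed here.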

Additional observations from a re-analysis of the deposited data

Results flagged for a closer look

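In 5 of 73 genes checked, 1 array stood far from the other 3, with a gap to its nearest neighbour, as a share of the whole range, above Dixon's limit for 4 values. Chance alone marks about 1 in 20 groups of this size. *DKK3* was at 0.52 on array 2, with the other arrays between -0.03 and 0.00, so its mean of 0.12 comes from that array. *MYH7* was at -0.70 on array 1 and between -1.32 and -1.25 on the others, below 0 on all 4. *PTPRC* was at 0.47 on array 1 and between 0.21 and 0.22 on the others. *CNN1* was at -1.10 on array 4 and between -0.18 and -0.11 on the others, and *ACTA2* at -1.34 on array 4 and between -0.32 and -0.19 on the others. Both are smooth muscle genes. The cause of these single values was not tested.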

How the results depend on the processing

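The number of changed probes on the whole array was 6257 as reported, 768 with the plain t-test after adjustment, 3863 at a minimum of 1.3-fold and 3690 of 43603 with no filter on dim probes. Leaving out the pairing of channels within an array (no replicate block) gave 2226. Without a single replicate between 2573 (without replicate 2) and 4957 (without replicate 4) were called. The number of changed members was 5 as reported and 3 with normexp and loess (DKK1, FZD10 and, in addition, FZD4). It was 3 at a minimum of 1.3-fold, 0 with the t-test, 2 with unpaired channels and 2 of 37 with no filter on dim probes. Without a single replicate between 2 (without replicate 3) and 6 (without replicate 1) members were called. Both channels above background gave no value for DKK2, FZD4, NKD2, KREMEN2, MYH2, MYH11 and SFRP4. Of 264 comparisons of members with their alternatives 230 kept call and direction, 23 were weaker, 3 stronger and 8 reversed. The cause of these differences was not tested.

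Among the genes whose means are given, the sign turned without lowess in AXIN1 (-0.0015), LGR4 (-0.039), LGR6 (-0.028), CTNNB1 (0.12), CTNNBIP1 (0.063), RHOA (0.21), COL1A2 (0.81), COL3A1 (0.70) and WNT6 (-0.12). With normexp and loess it turned in GSK3B (-0.023), in the mean log2 ratio of BCL9 (-0.041), and in COL1A2 (0.17), COL3A1 (0.098) and CD14 (-0.029). With 1 array left out, AXIN1 ran from -0.043 (without replicate 1) to 0.11 (without replicate 2), DKK3 from -0.015 (without replicate 2) to 0.17 (without replicate 3) and LGR4 from -0.034 (without replicate 1) to 0.065 (without replicate 3). The range of WNT5B was -0.16 (without replicate 4) to 0.031 (without replicate 3), of WNT7B -0.043 (without replicate 4) to 0.18 (without replicate 3) and that of the mean log2 ratio of RYK -0.0070 (without replicate 4) to 0.14 (without replicate 1). GSK3B lay between -0.038 (without replicate 1) and 0.059 (without replicate 4), BCL9 between -0.045 (without replicate 1) and 0.056 (without replicate 4), and CTNNBIP1 between -0.044 (without replicate 3) and 0.058 (without replicate 1). RHOA went from -0.14 (without replicate 1) to 0.095 (without replicate 4), CD14 from -0.040 (without replicate 1) to 0.084 (without replicate 4), SFRP2 from -0.29 (without replicate 1) to 0.24 (without replicate 4) and the mean log2 ratio of WNT6 from -0.025 (without replicate 3) to 0.049 (without replicate 4).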

Other observations

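A further 8 genes of the WNT family have probes whose symbol column holds only a transcript identifier, so that the choice by symbol passed them over while the description column names them. They were taken up after the files were seen. *FZD2*, a frizzled receptor, gave -0.04, -0.45, -0.50 and -0.79 on the 4 arrays, a mean of -0.45 ± 0.31 with a limma adjusted p of 0.0424. Like *FZD10* it was below 0 on every array with the smallest ratio on array 1, but its call was lost without replicate 2, 3 or 4.

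*SFRP4*, a secreted antagonist that binds WNT, has a pair of probes shifted by 20 bases. One was above background in control cells on all 4 arrays and in HMB-treated cells on none, which puts its signal at least 1.52-fold lower in HMB-treated cells, a bound set by the lowest signals above background in Cy5 and open to dye bias. The other was above background in control cells on 1 array and was not tested, so the difference rests on a single probe. *SFRP2* lay on both sides of 0, at 0.57, 0.18, -0.03 and -1.02, and did not pass. *WNT6* was at 0.01 ± 0.09, and *WNT3A*, *WNT5A*, *FZD8* and *DACT2* were dim.

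The probes of the tested members had a median of 48.3% G and C bases, against 41.7% over all tested probes.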
